A study of Homo sapiens with 6 samples.

Results

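The RNAs described here are 7 small noncoding RNAs that RNA polymerase III makes and that do not code for protein: 7SK, 7SLRNA, BC200 and the Y RNAs HY1, HY3, HY4 and HY5. They were taken by these row names from the deposited count table of repeats, where they are 7 of 15600 entries. All 7 were counted in each of the 6 libraries and passed the filter on low counts. The libraries hold total RNA of H9, an established line of human embryonic stem cells, in 3 groups of 2. RSeT+DT cells received 10 nM DZNep and 5 nM TSA for 48 hours in RSeT, a commercial naive-type medium. RSeT cells were grown in the same medium without these agents, and primed cells in mTeSR medium. DZNep inhibits S-adenosylhomocysteine hydrolase and thereby histone methylation by EZH2, and TSA inhibits histone deacetylases. The design text calls the cells wild type. The study used 1 cell line, and its labels name neither a vehicle for the RSeT cells nor separate cultures for the replicates, so the error behind each p-value is that between libraries and may be only technical.

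7SK is a nuclear RNA that, with the proteins HEXIM and LARP7, holds the kinase P-TEFb inactive and so limits the release of paused RNA polymerase II. 7SL is the scaffold of the signal recognition particle, which brings ribosomes that make secreted and membrane proteins to the endoplasmic reticulum, and Alu elements descend from it. BC200 is a primate RNA with an Alu-like 5′ part, best known from neurons and tumour cells, where it represses translation. Y RNAs bind the protein Ro60, and are tied to RNA quality control and to the start of DNA replication.

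Sequences are shown for the parent genes of 7SK, HY1 and HY4. They are GENCODE v29 transcripts on the GRCh38 build, written as DNA, and each gene is a single exon of noncoding RNA. RN7SK lies at chr6:52995621-52995948 on the plus strand, and its first 60 bases are shown because they hold GATC, in capitals, 2 times.
RN7SK: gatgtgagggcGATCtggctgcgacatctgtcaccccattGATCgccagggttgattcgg
GATC is the DNA form of a motif that is known from the HEXIM-binding hairpin of 7SK. It reads the same on both strands. Of 206435 GENCODE transcripts of at least 60 bases, 1.04% hold it 2 or more times in their first 60 bases. A match is a description of these letters and not of binding.

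The Y RNA genes lie close together on chromosome 7. RNY1 is at chr7:148987136-148987248 on the minus strand and RNY4 at chr7:148963315-148963410 on the plus strand. They are shown as the parent genes of HY1, which was lowest in RSeT+DT, and of HY4, whose groups overlapped. Capitals mark the 11 bases that both share at their 5′ end.
RNY1: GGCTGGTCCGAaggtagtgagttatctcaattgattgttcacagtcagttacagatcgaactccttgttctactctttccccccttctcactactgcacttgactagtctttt
RNY4: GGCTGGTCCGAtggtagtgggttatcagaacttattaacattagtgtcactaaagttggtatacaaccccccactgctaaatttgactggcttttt
RNY1 and RNY4 were 76.8% identical over their 95 aligned bases, which leave out the gaps of an alignment that spans all 113 bases of RNY1. Counts are given per repeat name and not per genomic copy, and most of these RNAs have many copies. RefSeq lists 293 pseudogenes named for 7SK, 684 for 7SL, 2 for BC200, 16 each for Y1 and Y3, 33 for Y4 and 10 for Y5. No source used here says how reads that map to several copies were assigned or whether strand was used, so reads of a parent gene, of its copies and of transcripts that run through a copy cannot be told apart.

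Counts assigned to repeats per library totalled 13064045 and 11520770 (RSeT+DT), 38312112 and 17191110 (RSeT), and 16838730 and 13628911 (primed). The 7 RNAs took 23.6% and 21.4% of them in RSeT+DT cells, 16.3% and 15.7% in RSeT cells, and 24.4% and 22.8% in primed cells. CPM here is counts per 1000000 repeat counts, so a share of this size acts on every CPM value. Fold changes are therefore given from edgeR with TMM factors, which do not rest on the total alone, and beside a second scaling on interspersed repeats (transposable elements) where the call differs. HERVH-int, the internal part of a retrovirus family active in pluripotent cells, stood apart between groups. It was at 118627 and 114855 CPM in RSeT+DT, 73442 and 75615 CPM in RSeT and 23829 and 26519 CPM in primed cells. LTR7 stood in the same order, but other marker repeats did not. HERVK-int was at 16530 and 17480 CPM in RSeT+DT, 20070 and 19229 CPM in RSeT, and 336 and 344 CPM in primed cells. LTR5_Hs overlapped between RSeT+DT and RSeT, and MLT2A1 between RSeT and primed cells. HERVL-int and MLT2A2 were highest in RSeT. Only repeats were analysed here, so gene markers of cell type were not checked.

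7SLRNA was the most abundant of the 7. Its level was 212616 and 191692 CPM in RSeT+DT cells, 147245 and 141036 CPM in RSeT cells, and 221134 and 205322 CPM in primed cells. The RSeT libraries were the lowest, while RSeT+DT and primed cells overlapped. 7SK had 23004 and 22303 CPM in RSeT+DT, 15631 and 15376 CPM in RSeT, and 22694 and 22534 CPM in primed cells. RSeT was again low, and the RSeT+DT values lay on both sides of the primed ones. BC200 had another order, with 233.9 and 225.2 CPM in RSeT+DT, 180.8 and 169.9 CPM in RSeT, and 97.4 and 106.1 CPM in primed cells. Its 3 groups did not overlap, and it was highest in RSeT+DT and lowest in primed cells. In bulk RNA, fewer cells with an RNA and less of it per cell cannot be told apart.

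The Y RNAs were counted far less. HY1 had 39.0 and 39.8 CPM in RSeT+DT, 54.6 and 49.5 CPM in RSeT, and 65.2 and 64.8 CPM in primed cells, from 458 to 2090 counts a library. HY3 had 42.6 and 44.7 CPM in RSeT+DT, 53.4 and 50.1 CPM in RSeT, and 59.4 and 57.3 CPM in primed cells. For both, the CPM of the groups did not overlap and stood in the reverse order to BC200. This order was not particular to them. Each of the 4 Alu monomers, short elements described below, also showed it in CPM without overlap. Under library totals the median log2 fold change of all features was -0.13 in RSeT+DT against RSeT and -0.16 in RSeT against primed cells. That of interspersed repeats was -0.38 and 0.032. The share of all features without overlap between groups is not reported here. HY4 had 11.1 and 13.6 CPM in RSeT+DT, 14.5 and 12.6 CPM in RSeT, and 12.8 and 14.7 CPM in primed cells, so that all groups overlapped. HY5 had 17 and 6 counts in RSeT+DT, 32 and 13 in RSeT, and 18 and 13 in primed cells, or 0.521 to 1.30 CPM over all 6 libraries. At this depth only large differences of HY5 could be seen.

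**Figure D1:**
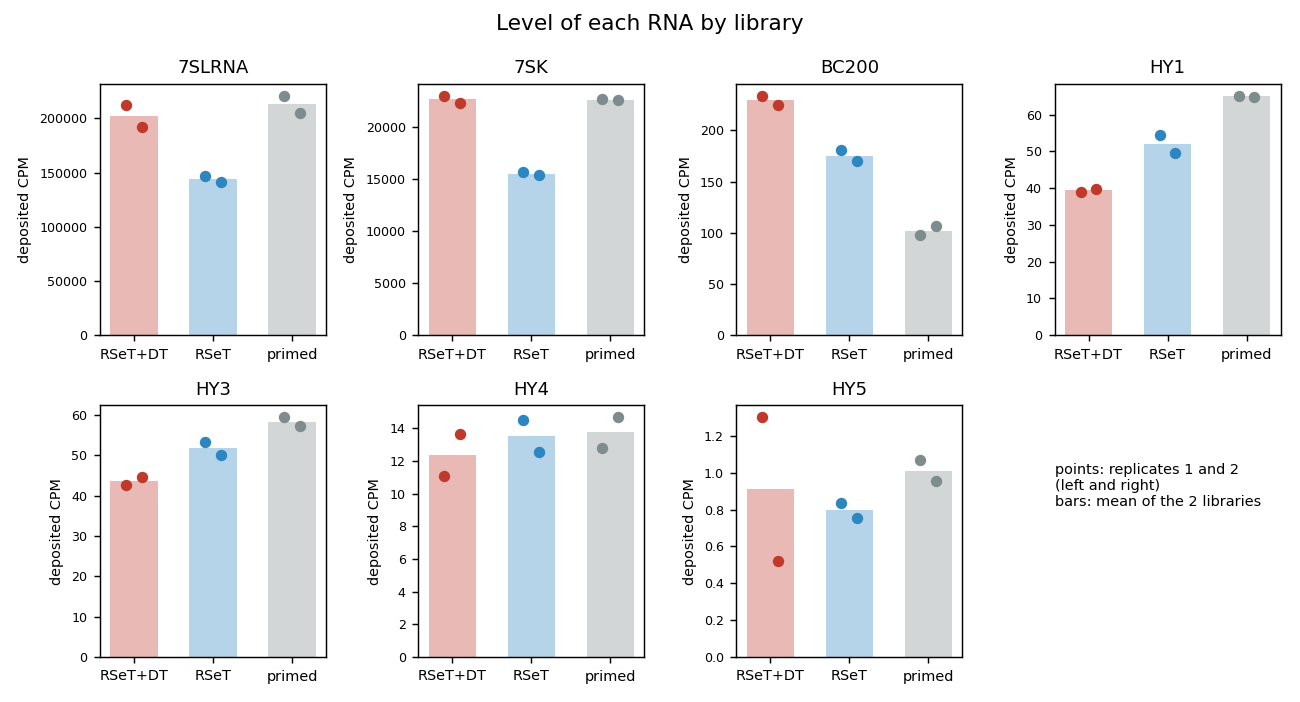
Levels of the 7 RNAs by library, in deposited CPM on linear axes that start at 0 and differ between panels, with 1 point per library and a bar at the mean of each group (n = 2). BC200 steps down, and HY1 and HY3 step up, over the columns RSeT+DT, RSeT and primed, while 7SLRNA and 7SK are low in RSeT and the points of HY4 overlap.

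Per length, on the scale of CPM per kilobase of the RefSeq parent RNA, 7SLRNA averaged 676100 ± 49482 in RSeT+DT cells, 482074 ± 14684 in RSeT cells and 713137 ± 37395 in primed cells (SD, n = 2 each). In RSeT+DT and RSeT the order of these per-kilobase levels was 7SLRNA, 7SK, BC200, HY3, HY1, HY4, HY5, and no neighbours overlapped. In primed cells HY1 and HY3 overlapped, at 575 ± 2.24 and 572 ± 14.4, and both stood above BC200 at 509 ± 30.8. BC200 thus held the place after 7SK in RSeT+DT and RSeT, and the place after HY1 and HY3 in primed cells. The per-kilobase level of 7SLRNA was 9.54 to 10.8 times that of 7SK in the 6 libraries. The Y RNAs are the shortest of the 7, at 84 to 113 bases, and the libraries were selected for size on beads. The part of length in the order was not tested.

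The first comparison, RSeT+DT against RSeT, addresses the effect of DZNep and TSA on cells in the same medium. 7SK, 7SLRNA and BC200 rose, HY1 fell, and HY3, HY4 and HY5 did not pass the test. In edgeR's quasi-likelihood test 3 of 7 RNAs were called higher and 1 lower, where 25% of all 4665 tested features were called higher and 17.4% lower. Of the 15600 entries, 14234 are simple or low-complexity repeats by name, and 1136 of the 4665 tested features are interspersed repeats. Shares over all features, here and below, are thus largely those of features that are not interspersed repeats. The log2 fold change was 0.70 for 7SK (SE 0.028, adjusted p = 6.19e-16) and 0.64 for 7SLRNA (SE 0.040, adjusted p = 3.49e-12), both in edgeR. That of BC200 was 0.54 (SE 0.044, adjusted p = 3.98e-10, edgeR). HY1 had -0.26 (SE 0.070, adjusted p = 0.00373, edgeR), but -0.039 and no call under interspersed scaling. HY1 was also not called without RSeT replicate 1, at -0.16 (adjusted p = 0.153, edgeR). HY3 stood at -0.10 (95% interval -0.24 to 0.040) and HY4 at -0.0022 (interval -0.27 to 0.26), neither passing. With library totals HY3 was called lower, at -0.25. Interspersed scaling called 3 of 7 higher and 0 lower, beside 37.1% and 6.02% of all features, and library totals called 3 and 2, beside 16.9% and 24.8%. The interval of HY5 ran from -0.57 to 1.29 and so holds changes as large as that of 7SK. The median of all interspersed repeats was -0.22 under this TMM scaling, so HY1 lay close to it, and 7SK, 7SLRNA and BC200 lay above it.

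RSeT against primed cells compares the naive-like with the primed culture. BC200 rose, 7SK, 7SLRNA and HY1 fell, and HY3, HY4 and HY5 did not pass. That is 1 of 7 called higher and 3 lower, beside 22.8% and 23.8% of all tested features in edgeR's test. BC200 had a log2 fold change of 0.92 (SE 0.046, adjusted p = 9.13e-15, edgeR). 7SK had -0.41 (SE 0.028, adjusted p = 4.48e-12, edgeR) and 7SLRNA -0.43 (SE 0.040, adjusted p = 1.36e-09, edgeR). HY1 had -0.18 (SE 0.062, adjusted p = 0.0210, edgeR). It lost this call in DESeq2 (-0.16, adjusted p = 0.177), with no filter on low counts (-0.16), without RSeT replicate 2 (-0.097) and without primed replicate 1 (-0.14). HY3 stood at -0.037 (interval -0.17 to 0.091), but was called lower under interspersed scaling, at -0.20, and with library totals, at -0.17. HY4 stood at 0.13 (interval -0.12 to 0.38) and HY5 at -0.20 (interval -1.06 to 0.66). Interspersed scaling called 1 of 7 higher and 4 lower, beside 13.7% and 36.1% of all features, and library totals also called 1 and 4, beside 14.6% and 32.9%. The median of the interspersed repeats with TMM was 0.16 here.

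RSeT+DT against primed cells uses the same libraries as the comparisons above and is not independent of them. BC200 had the largest change of the 7, with a log2 fold change of 1.46 (SE 0.048, adjusted p = 9.90e-19, edgeR), which is 2.76-fold on the TMM scale. Its ratio of mean CPM, which follows the library totals, was 2.26. HY1 fell, with -0.44 (SE 0.071, adjusted p = 1.62e-05, edgeR). 7SK stood at 0.29 (SE 0.028, adjusted p = 4.51e-09) and 7SLRNA at 0.21 (SE 0.040, adjusted p = 0.000108) with TMM in edgeR, both called higher. These calls rested on the scaling. With library totals 7SK was at 0.0026 (adjusted p = 0.966) and 7SLRNA at -0.077 (adjusted p = 0.110) in edgeR, and their CPM overlapped between RSeT+DT and primed cells. In DESeq2 7SLRNA did not pass either (0.19, adjusted p = 0.157). TMM thus called 3 of 7 higher and 1 lower, where 25.1% of all features were higher and 20.6% lower. HY3, at -0.14 with TMM, did not pass (interval -0.28 to 0.0071), but library totals called it lower, at -0.42. HY4 (0.13) and HY5 (0.16) did not pass. Interspersed scaling called 3 of 7 higher and 1 lower, beside 28.1% and 17.6% of all features, and library totals called 1 and 2, beside 13.1% and 38.3%.

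**Figure D2:**
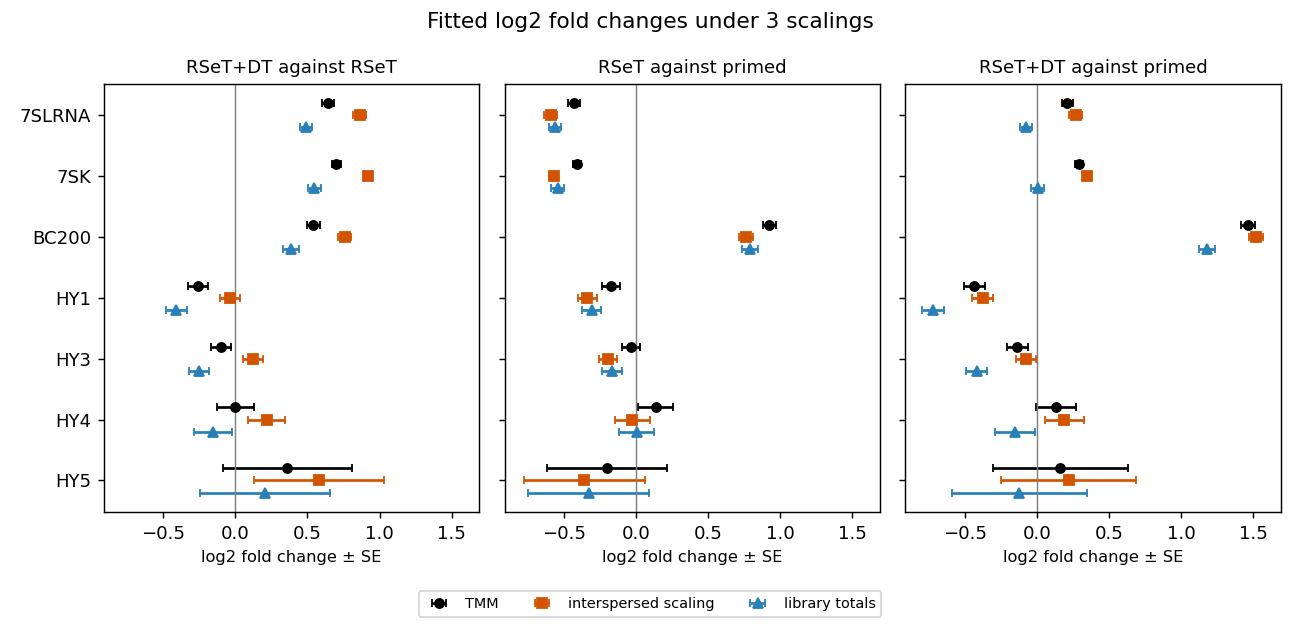
Log2 fold changes of the 7 RNAs in the 3 comparisons under TMM, interspersed scaling and library totals, as points with bars of 1 SE of the fit. BC200 lies above 0 in each panel and under each scaling, while 7SK and 7SLRNA lie near 0 in RSeT+DT against primed cells with library totals.

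Ratios between the 7 RNAs within a library do not depend on the total. There were 108 and 116 counts of 7SK per 1000 of 7SLRNA in RSeT+DT, 106 and 109 in RSeT, and 103 and 110 in primed cells, and all 3 groups overlapped. With 7SLRNA as the size of each library, the log2 fold change of 7SK was 0.061 (95% interval -0.22 to 0.34) in RSeT+DT against RSeT, 0.019 (interval -0.26 to 0.30) in RSeT against primed and 0.080 (interval -0.20 to 0.36) in RSeT+DT against primed cells. None of these passed in edgeR, and the intervals do not show that the ratio was equal. BC200 had 11.0 and 11.7 counts per 10000 of 7SLRNA in RSeT+DT, 12.3 and 12.0 in RSeT, and 4.40 and 5.17 in primed cells. The 3 groups did not overlap, with RSeT highest and primed cells lowest, so RSeT+DT and RSeT stood in the reverse of their order in CPM. Relative to 7SLRNA, BC200 was at -0.097 in RSeT+DT against RSeT, which did not pass (adjusted p = 0.537, edgeR), and at 1.35 in RSeT against primed cells (SE 0.13, adjusted p = 1.92e-23, edgeR). In RSeT+DT against primed cells it was at 1.25 (adjusted p = 6.05e-20, edgeR).

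Relative to 7SLRNA, HY1 and HY3 were lowest in RSeT+DT cells. HY1 had 1.84 and 2.07 counts per 10000 of 7SLRNA in RSeT+DT, 3.71 and 3.51 in RSeT, and 2.95 and 3.16 in primed cells. HY3 had 2.0 and 2.33 in RSeT+DT, 3.62 and 3.55 in RSeT, and 2.69 and 2.79 in primed cells. For both RNAs the 3 groups did not overlap, with RSeT highest. In RSeT+DT against RSeT the log2 fold change relative to 7SLRNA was -0.89 for HY1 (SE 0.13, adjusted p = 3.30e-10), -0.73 for HY3 (adjusted p = 2.07e-07) and -0.62 for HY4 (adjusted p = 0.000418), all in edgeR. These are 3 of 6 called lower and 0 higher, beside 50.7% of all 4664 features lower and 0.901% higher on that scale, so the share of lower calls was near that over all tested repeats. HY4 was not called without RSeT+DT replicate 1 (adjusted p = 0.084, edgeR).

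In RSeT against primed cells, 3 of 6 were called higher relative to 7SLRNA, BC200, HY3 (0.39, adjusted p = 0.00615) and HY4 (0.55, adjusted p = 0.00137), and 0 lower in edgeR, beside 45.7% of features higher and 7.18% lower. The calls of HY3 and HY4 were lost without RSeT replicate 1 or primed replicate 1, which left 1 of the 3, and that of HY3 also without RSeT replicate 2. In RSeT+DT against primed cells BC200 was called higher and HY1 (-0.64, adjusted p = 1.88e-05) and HY3 (-0.34, adjusted p = 0.0317) lower in edgeR, beside 12.2% and 26.6% of features. The call of HY3 was lost in 5 of 6 fits that left out 1 library, all but that without RSeT+DT replicate 2.

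**Figure D3:**
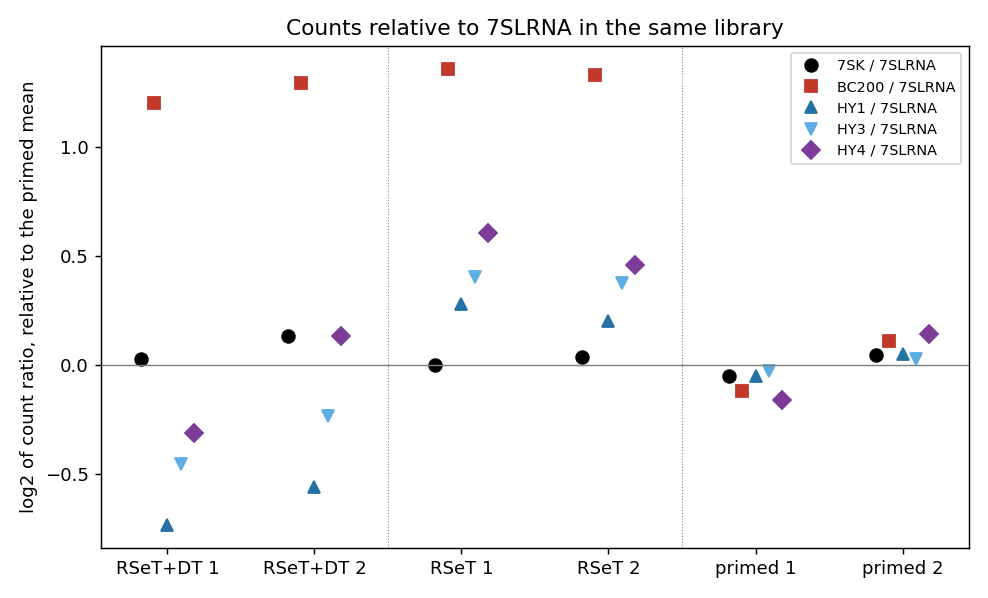
Counts of 7SK, BC200, HY1, HY3 and HY4 over those of 7SLRNA in the same library, on the log2 scale relative to the mean of the primed libraries, with 1 point per RNA and library. The points of 7SK stay near 0 in all 6 libraries, those of BC200 are high in RSeT+DT and RSeT, and those of HY1 and HY3 are lowest in RSeT+DT and highest in RSeT.

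HY1 and HY3, whose genes neighbour each other, were also set against each other. There were 0.917 and 0.889 counts of HY1 per count of HY3 in RSeT+DT, 1.02 and 0.988 in RSeT, and 1.10 and 1.13 in primed cells, with no overlap between groups. As a share of their sum, HY1 was 47.8% (95% Wilson interval 44.9 to 50.8) and 47.1% (44.0 to 50.2) in RSeT+DT and 52.3% (50.2 to 54.4) and 53.1% (50.7 to 55.5) in primed cells. The intervals, which cover counting error only, overlap narrowly between these groups, except that those of RSeT+DT replicate 2 and primed replicate 2 do not. The RSeT values of 50.6% and 49.7% lie between. Whether this ratio differed between groups was not tested.

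Elements that share ancestry or polymerase with the 7 RNAs were set beside them, by lists drawn up with earlier results known. The 4 Alu monomers, short elements that derive from 7SL as dimeric Alu does, moved unlike 7SLRNA in RSeT+DT against RSeT. All 4 were called lower, with a median of -0.16 beside 0.027 over all features, from FRAM at -0.19 to FLAM_C at -0.13. Under interspersed scaling 1 of the 4, FLAM_C at 0.092, was called higher and 0 lower. There were 49.3 and 42.5 counts of 7SLRNA per count of these monomers in RSeT+DT, 27.3 and 25.7 in RSeT, and 38.0 and 33.6 in primed cells, with no overlap. BC200 had 5.43 and 4.99 counts per 100 of the monomers in RSeT+DT, 3.35 and 3.10 in RSeT, and 1.68 and 1.74 in primed cells. The order of its groups in CPM thus also held relative to these related sequences, though not relative to 7SLRNA. HY3 had 0.987 and 0.990 per 100 of them in RSeT+DT, 0.989 and 0.914 in RSeT, and 1.02 and 0.938 in primed cells, and the groups overlapped.

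Of 47 dimeric Alu subfamilies tested, 3 were called higher and 24 lower in RSeT+DT against RSeT (median -0.13), against 22 and 0 under interspersed scaling. In RSeT against primed cells 17 were higher and 0 lower (median 0.077), against 7 and 23, as higher and lower calls. The sign of the median thus turned with the scaling, for the monomers in the first of these comparisons and for the dimeric Alu in both. The tested Alu names are themselves among the 1136 interspersed repeats that set this scaling, so it is not independent of them.

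The list of other RNAs of polymerase III, made of 5S ribosomal RNA, the spliceosomal U6 and tRNA names, had 3 of 58 higher and 17 lower in RSeT+DT against RSeT, with a median of -0.28. Interspersed scaling gave 5 higher and 10 lower (median -0.059), and library totals 2 and 28 (median -0.43). The list holds 2 names marked (m), as for mitochondrial tRNA, which polymerase III does not make, and both were called higher. Without them 1 of 56 was higher and 17 lower. In RSeT against primed cells 39 of the 58 were higher and 3 lower (median 0.52), and 34 and 3 under interspersed scaling. In RSeT+DT against primed cells 17 were higher and 6 lower (median 0.32), but 10 and 12 with library totals. U6 had 85.0 and 85.3 CPM in RSeT+DT, 112 and 112 CPM in RSeT, and 100 and 117 CPM in primed cells. With TMM it was called lower in RSeT+DT against RSeT (-0.24, adjusted p = 0.000639) and higher in RSeT against primed cells (0.19, adjusted p = 0.00452) in edgeR, in both cases opposite in sign to 7SK, whose promoter is of the same upstream kind. Neither call of U6 held under interspersed scaling, at -0.025 and 0.024, and the second also did not hold with library totals, at 0.052. 5S stood at -0.081 and 0.052 in these comparisons with TMM and did not pass, but library totals called it lower in the first, at -0.23.

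The 11 small nuclear and nucleolar RNAs of polymerase II had 7 higher and 3 lower in RSeT+DT against RSeT (median 0.34) and 3 higher and 5 lower in RSeT against primed cells (median 0.044). In the second of these the median turned to -0.12 under interspersed scaling and -0.086 with library totals, each with 1 higher and 5 lower. Among them U1, the spliceosomal RNA that recognises the 5′ splice site, had a log2 fold change of 0.61 in the first and -0.59 in the second of these comparisons, and was called in the same directions under interspersed scaling and with library totals.

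**Figure D4:**
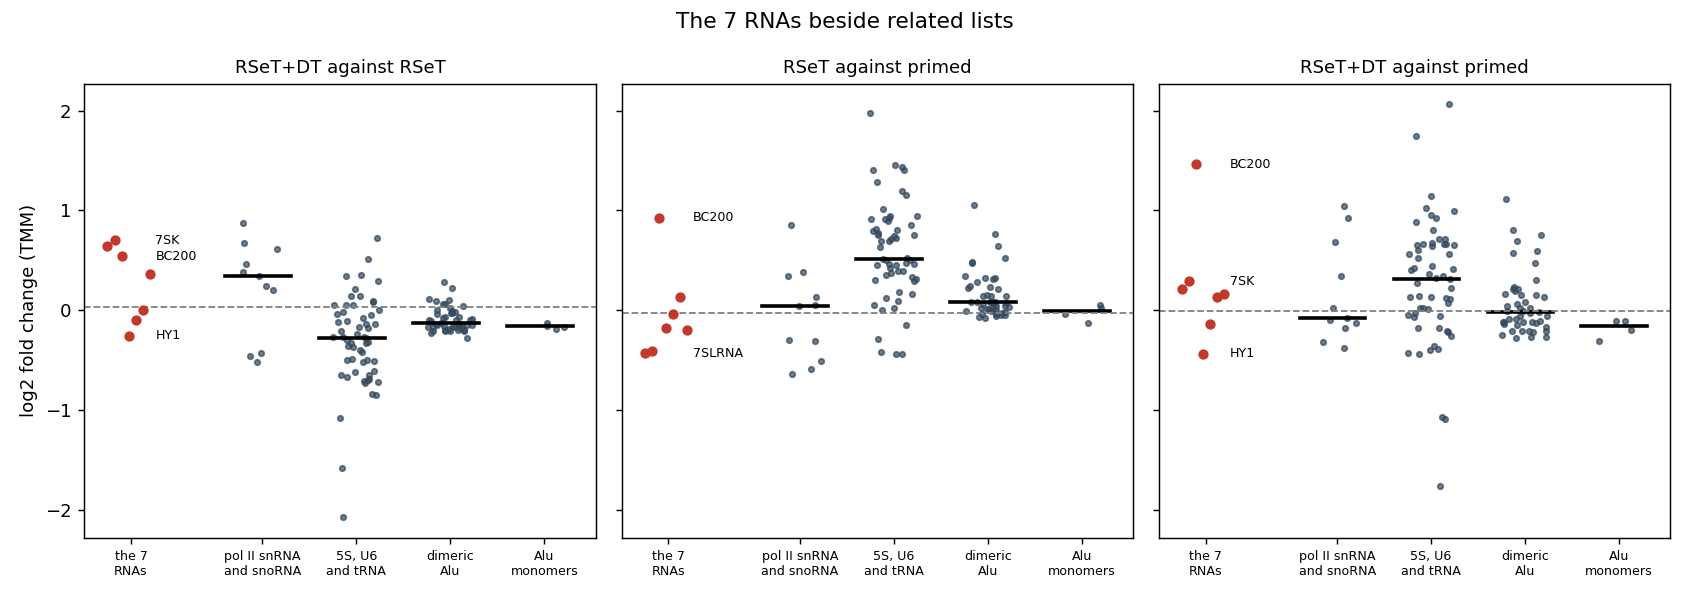
Log2 fold changes with TMM of the 7 RNAs and of 4 related lists in each comparison, with 1 point per tested feature, a black bar at the median of each related list and a dashed line at the median of all 4665 features. In RSeT against primed cells the points of 5S, U6 and tRNA centre at 0.52, above those of 7SLRNA and 7SK.

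The features whose pattern over the 6 libraries was most like that of each RNA were found by the root mean square difference of centred log2 CPM, among 804 or 805 features with a mean of at least 500 counts. 7SLRNA and 7SK were nearest to each other, at 0.055. The next for 7SLRNA were MER11B, an LTR of a retrovirus family, at 0.057, and U1 at 0.12. MER11B had 18251 and 16955 CPM in RSeT+DT, 13301 and 12489 CPM in RSeT, and 21238 and 19473 CPM in primed cells. BC200 was nearest to LTR7Y, an LTR of HERVH, at 0.099, to Charlie21a at 0.11 and to MER61A at 0.12. LTR7Y had 72.0 and 73.2 CPM in RSeT+DT, 62.2 and 61.5 CPM in RSeT, and 28.9 and 32.7 CPM in primed cells. HY1 was nearest to ORSL-2b (0.032), HY3 to Tigger11a (0.038) and HY4 to LTR24 (0.076), all interspersed repeats. For HY5 no feature came closer than U5, at 0.26.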

How the data were processed

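Libraries were made from 500 ng of RNA with a kit for stranded total RNA and selected for size on beads, per the labels' protocols. The deposited table holds raw counts per repeat name, and the authors' CPM table scales them to 1000000 per library over its 7383 listed repeats. Trimmomatic 0.39, STAR 2.7.8a, featureCounts and Subread 2.14.2 and the GRCh38/hg38 build are named per the submitters' processing notes. The repeat annotation, and how strand and multi-mapping reads were handled, appear in no source used here.

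Levels are the deposited CPM. Counts were tested with edgeR 4.0.16 (R 4.3.3, quasi-likelihood, TMM, filterByExpr with at least 10 counts and a total of 15), group being the single term of a fit to all 6 libraries. P-values were adjusted by Benjamini-Hochberg over 4665 features and called at 0.05. The fit had 3 residual degrees of freedom and a common biological coefficient of variation of 5.49%. Intervals of fold changes use the total degrees of freedom of each fit, 24.7 with TMM and 13992 relative to 7SLRNA. The p-values relative to 7SLRNA thus rest on a spread pooled over the features and hardly on that of each RNA. Those with TMM, at 24.7 total beside 3 residual degrees of freedom, also rest mostly on the pooled spread. For 7SLRNA in RSeT+DT against RSeT the adjusted p was 3.49e-12 in edgeR. It was 1.62e-07 in DESeq2 and 0.000664 in limma on log2 of CPM plus 1. Replicates differed by more than sampling noise, at a chi-square of 17.0 (RSeT+DT), 6.02 (RSeT) and 30.5 (primed) per degree of freedom. Fits relative to 7SLRNA used its count as library size. Interspersed scaling took TMM factors from 1136 interspersed repeats. Alternatives were RLE, library totals, totals of all other repeats, DESeq2 1.42.0, no filter, a minimum mean count of 50, limma 3.58.1 on log2 of CPM plus 1 or 0.1, a replicate block, only the groups compared, and each library left out. Scaling on interspersed repeats and on library totals for the related lists, the omissions and block for fits relative to 7SLRNA, and the count without tRNA names marked (m), were added after the data were seen. The test was checked on simulated data in which a small part of the features changed, in RSeT+DT only, with a common dispersion. Its values are not reported here, and it does not bear on the choice of scaling. Members, lists and the rule for likeness (the 3 nearest features) were chosen with earlier results of these data known. Sequences and lengths come from GENCODE v29 and from RefSeq, and intervals on counts cover counting error only. The sequences of the other members are not reported here.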

Additional observations from a re-analysis of the deposited data

How the results depend on the processing

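Over 17 alternative settings, the fold changes of single RNAs gave 353 values, of which 305 kept direction and call, 11 gained a call, 10 lost one and 27 changed sign. BC200 kept its direction and call under all 17 settings in each comparison. The fit relative to 7SLRNA is not among these settings. In that fit BC200 was at -0.097 in RSeT+DT against RSeT and did not pass (adjusted p = 0.537, edgeR). Of the sign changes, 22 were in HY3, HY4 and HY5 where they were not called with TMM, and 5 were in called values, all in RSeT+DT against primed cells: 7SK at -0.018 with totals of all other repeats, and 7SLRNA at -0.077 with library totals, -0.097 with totals of all other repeats and -0.078 with limma at either pseudocount. In the same comparison HY4 was at -0.15 with library totals, -0.17 with totals of all other repeats and -0.15 and -0.16 with limma at pseudocounts of 1 and 0.1, and HY5 at -0.13, -0.14, -0.10 and -0.25 under these settings. HY4 in RSeT against primed cells was at -0.028 under interspersed scaling, -0.13 with totals of all other repeats and -0.023 and -0.024 with limma. In RSeT+DT against RSeT, interspersed scaling put HY3 at 0.12 and HY4 at 0.22. Leaving out each library gave -0.12 to 0.14 for HY4 and -0.49 to 0.87 for HY5 in RSeT+DT against RSeT, -0.094 to 0.025 for HY3 in RSeT against primed cells, and -0.69 to 0.69 for HY5 in RSeT+DT against primed cells. In that last comparison 1 RNA was called higher with library totals, with totals of all other repeats and with limma at either pseudocount, against 3 with TMM. The number called lower was 2 with library totals, with a mean count of at least 50 and with limma at either pseudocount, and 3 with totals of all other repeats, against 1. In RSeT+DT against RSeT 2 were called lower with library totals and with limma at either pseudocount, and 0 under interspersed scaling, against 1. The cause was not tested. Leaving out each library gave 0 to 1 called lower in RSeT+DT against RSeT, and 1 to 3 called relative to 7SLRNA in RSeT against primed cells. With 1 library left in a group, that library is assumed to vary like the other groups.

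Over all 4665 tested features, deviations of the same replicate number correlated little between groups, at 0.050, 0.0015 and -0.040. This does not exclude pairing of the libraries by number for single RNAs. The CPM of 7SLRNA was higher in replicate 1 than in replicate 2 in each group. In RSeT+DT against RSeT relative to 7SLRNA, a replicate block lowered the SE of 7SK from 0.14 to 0.057 and of BC200 from 0.13 to 0.063. That of HY5 went from 0.46 to 0.47. With the number as a replicate block, 1949, 2157 and 2127 features were called in the 3 comparisons, against 1978, 2174 and 2135, the calls per direction among the 7 RNAs were equal in number, and HY1 gained a call relative to 7SLRNA in RSeT against primed cells. DESeq2 called 1511, 1548 and 1631 features. Depth limits HY5, at 6 to 32 counts a library, most.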

Other observations

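MER11B, the LTR whose pattern was close to that of 7SLRNA, was counted in a ratio to it that varied little. There were 11.6 and 11.3 counts of 7SLRNA per count of MER11B in RSeT+DT, 11.1 and 11.3 in RSeT, and 10.4 and 10.5 in primed cells. The 3 groups did not overlap, and primed cells were lowest. The ratio of 7SLRNA to U1 varied more, at 27.0 and 28.8 in RSeT+DT, 26.1 and 28.4 in RSeT, and 22.5 and 27.1 in primed cells. Whether reads of these names share genomic places was not tested.

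Among the tRNA names, picked after their values were seen as the extremes of the list, tRNA-Ile-ATC had a log2 fold change of -2.08 (SE 0.57, adjusted p = 0.00445, edgeR) in RSeT+DT against RSeT. tRNA-Arg-CGA_ had 1.97 (SE 0.64, adjusted p = 0.0140, edgeR) in RSeT against primed cells. Their errors are wide beside those of BC200, and the differences from it were not tested.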
